A study of Mus musculus with 6 samples.

Results

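The genes described here are the matrix metalloproteinases (Mmp), the disintegrin metalloproteinases (Adam), the secreted Adam proteinases with thrombospondin repeats (Adamts), their non-catalytic relatives (Adamtsl) and the tissue inhibitors of metalloproteinases (Timp1 to Timp4). They were chosen by gene name among the protein-coding genes of the table, which gave 85 of 55481 listed genes. They comprise 23 Mmp, 34 Adam, 19 Adamts, 5 Adamtsl and 4 Timp genes. The cells were sorted from squamous carcinomas of mouse skin induced by DMBA, a mutagen, and TPA, a tumour promoter, and their polyA RNA was sequenced in bulk. Cells carrying much Itga6, an integrin chain of basal keratinocytes, together with CD80, a co-stimulatory protein that T cells sense (Itga6hi CD80pos, which the submitters call stem-like), were set against cells with low Itga6 and no CD80 (Itga6low CD80neg, which they call differentiated), with 2 libraries each. No genotype, strain, age or number of animals is given in the labels, and the third sorted group, Itga6hi CD80neg, is not analysed here.

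Metalloproteinases of these families hold a catalytic zinc ion and are made as inactive precursors. Mmp enzymes cleave collagens and other matrix proteins, Adam enzymes at the cell surface release growth factors, cytokines and receptors from the membrane, and Adamts enzymes process procollagens and cut large proteoglycans. Timp proteins block the active site of many of them. In skin carcinomas the fibroblasts of the stroma are known as a main source of matrix-degrading enzymes, while tumour keratinocytes make some of their own.

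Values are TPM, transcript levels per unit of length scaled to a total of 1000000 in each library, from which sequencing depth cannot be read, and it is unknown. Between 11982 and 12728 genes reached 1 TPM in a library. Itga6 stood at 178 and 339 TPM in Itga6hi CD80pos and at 1.496 and 1.65 TPM in Itga6low CD80neg. Cd80 stood at 6.24 and 1.89 TPM in Itga6hi CD80pos and at 0.642 and 0.563 TPM in Itga6low CD80neg. Both were higher (limma with Benjamini-Hochberg adjustment, adjusted p = 0.00195 for Itga6 and adjusted p = 0.0381 for Cd80), and the Cd80 call was lost under other scalings (adjusted p up to 0.379). The Itga6low CD80neg libraries held high levels of markers of other cells. Haemoglobin genes made up 0.0185% and 0.00621% of all TPM in Itga6hi CD80pos, against 70.9% and 50.4% in Itga6low CD80neg. A list of 14 fibroblast markers summed to 24.2 and 93.7 TPM in Itga6hi CD80pos, against 11151 and 7898 TPM in Itga6low CD80neg, and 14 of 14 were lower. Of 12 keratinocyte markers, 11 were higher, and the list summed to 66896 and 61449 TPM in Itga6hi CD80pos, against 3120.4 and 8759 TPM in Itga6low CD80neg. Over all genes tested 9.48% were lower and 57.0% higher. Under all 5 scalings described below, 14 fibroblast markers were lower and 6 keratinocyte markers higher, against 8.30% and 6.46% of all genes tested. Muscle markers summed to 0.284 and 0.331 TPM in Itga6hi CD80pos, against 79.8 and 34.2 TPM in Itga6low CD80neg, melanocyte markers to 1.44 and 1.54 TPM in Itga6hi CD80pos, against 27.8 and 118 TPM in Itga6low CD80neg, lymphocyte markers to 0.146 and 0.0868 TPM in Itga6hi CD80pos, against 2.20 and 7.06 TPM in Itga6low CD80neg, and endothelial and pericyte markers to 17.8 and 23.6 TPM in Itga6hi CD80pos, against 17.7 and 15.2 TPM in Itga6low CD80neg. Within that last list the pericyte gene Rgs5 stood at 0.522 and 1.20 TPM in Itga6hi CD80pos, against 6.38 and 8.63 TPM in Itga6low CD80neg, and the endothelial gene Pecam1 at 2.34 and 5.84 TPM in Itga6hi CD80pos, against 0.253 and 2.03 TPM in Itga6low CD80neg. Of the 5 endothelial and pericyte markers tested, 2 were higher and 1 lower, when 57.0% and 9.48% of all genes tested were. The higher calls were those of Egfl7 and Vwf, and neither was kept. Egfl7 stood at 10.4 and 9.95 TPM in Itga6hi CD80pos, against 0.873 and 1.47 TPM in Itga6low CD80neg. Vwf stood at 1.02 and 1.67 TPM in Itga6hi CD80pos, against 0 and 0.118 TPM in Itga6low CD80neg. So the libraries of both groups are described here by their gate, and not as tumour cells alone. In such bulk libraries fewer cells of a type and less RNA per cell cannot be told apart.

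The haemoglobin share lowers every other gene of the Itga6low CD80neg libraries in TPM. Over the 13474 genes tested the median log2 fold change was 1.27 (Itga6hi CD80pos over Itga6low CD80neg, on log2 of TPM + 1, which understates the change of low genes), and it was 0.16 when haemoglobin genes were left out of the total. A gene is called where limma's adjusted p lay under 0.05. It is said to be kept where the call had the same direction on deposited TPM and under 4 other scalings, a count added after the data were seen. With 2 libraries a group, every call rests on few libraries. Leaving out 1 library leaves a group of 1, so the spread then comes from the other group alone. Such fits are given by their values only, and no call is read from them. Over the tested genes of these families the median log2 fold change was -1.84 with all libraries. It was -1.64 and -1.90 without Itga6hi CD80pos replicate 1 and 2, and -1.61 and -2.24 without Itga6low CD80neg replicate 1 and 2. The limit of 2 libraries a group holds for every call below.

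Of the 85 genes, 16 were listed at 0 in every library, 21 others stayed under 1 TPM in each, and 7 reached 1 TPM in 1 library only. The 41 genes that reached it in at least 2 libraries were tested. Of these, 25 were lower in Itga6hi CD80pos, when 9.48% of all genes tested were lower, and 7 were higher, when 57.0% were. Kept were 21 lower and 2 higher calls, against 8.30% and 6.46% of all genes tested. The filter favours genes of either group, since 18 of the 41 reached 1 TPM in Itga6low CD80neg only, and 17 of those 18 were lower, as were 92.0% of all such genes. Among the 21 that reached 1 TPM in a library of both groups, 8 were lower and 5 higher, when 3.85% and 58.9% of all genes of that kind were, and 8 lower and 1 higher calls were kept, against 3.53% and 5.43%. The median log2 fold change of the 41 genes was -1.84, and -3.17 without haemoglobin genes, where 2 were higher and 21 lower, against 7.72% and 10.8% of all genes.

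**Figure D1:**
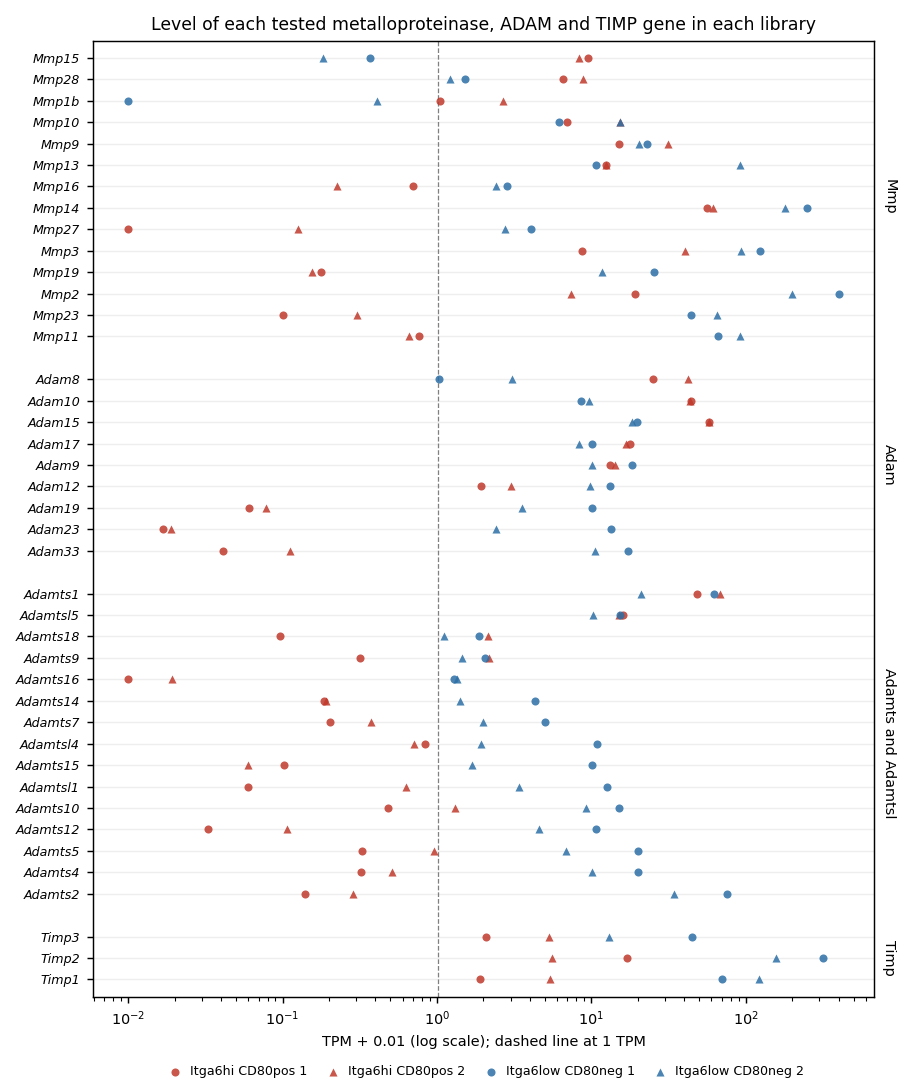
TPM + 0.01 on a log axis for the 41 tested genes, 1 row per gene and 1 symbol per library, ordered within families by log2 fold change. Mmp11, Mmp23 and Adamts2 lay under 1 TPM in both Itga6hi CD80pos libraries and above 30 TPM in both Itga6low CD80neg libraries, while Adam8, Adam10, Adam15 and Mmp15 lay higher in Itga6hi CD80pos.

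The families held unequal shares of their summed level. The 85 genes summed to 389 and 482 TPM in Itga6hi CD80pos, against 1787 and 1267 TPM in Itga6low CD80neg. Adam genes held 41.4% and 37.0% of that sum in Itga6hi CD80pos, against 6.37% and 6.11% in Itga6low CD80neg. Timp genes held 5.40% and 3.38% in Itga6hi CD80pos, against 24.2% and 23.2% in Itga6low CD80neg. Mmp genes held 35.7% and 40.1% in Itga6hi CD80pos, against 53.8% and 61.6% in Itga6low CD80neg. These shares are formed within a library, so they do not depend on the haemoglobin content. The groups did not overlap for Adam, Timp or Mmp shares. Adamts genes held 13.1% and 15.99% in Itga6hi CD80pos, against 13.0% and 7.77% in Itga6low CD80neg, and the groups lay close together. With 2 libraries a group the smallest p of an exact permutation test is 0.333, so no p is given for such single values.

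**Figure D2:**
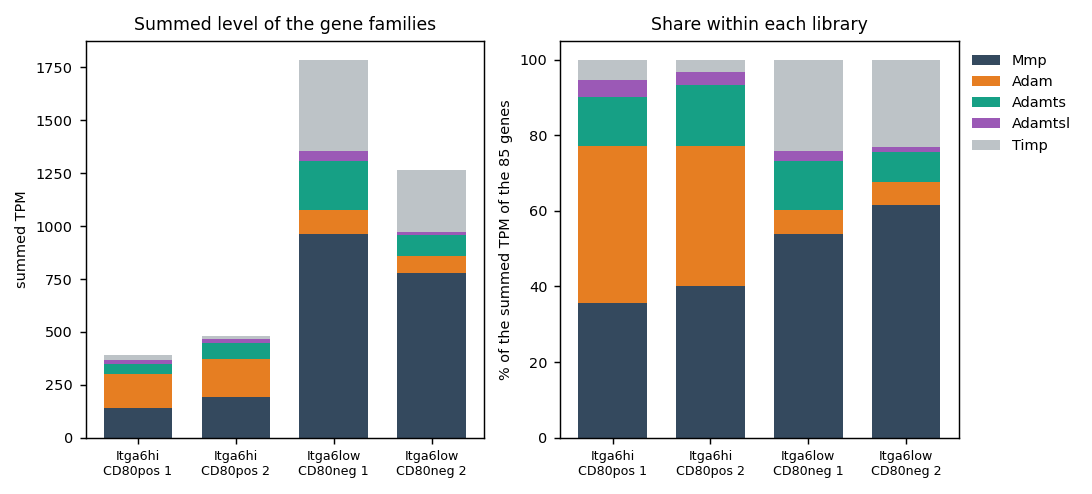
Summed TPM of each gene family per library (left) and the same as a percentage of the sum of all 85 genes (right). Adam genes are 37.0% to 41.4% of the sum in the Itga6hi CD80pos libraries and 6.11% to 6.37% in the Itga6low CD80neg libraries.

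The genes were also grouped by the cells in which they are commonly described. These lists were chosen with earlier results of these data known, so their counts are a description and not an independent test. Of 19 genes known from fibroblasts or other mesenchymal cells, 18 were lower in Itga6hi CD80pos and 18 of these calls were kept, when 9.48% of all genes tested were lower and 8.30% were lower and kept. Of the 19, 11 reached 1 TPM in Itga6low CD80neg only. All 11 were lower and kept, when 92.0% of all genes of that kind were lower and 78.5% lower and kept. Of the 8 that reached it in both groups 7 were lower and kept, when 3.85% of all such genes were lower and 3.53% lower and kept. The remaining gene was Adamts1, which had no call. The median log2 fold change of the 19 was -3.004, against 1.27 over all genes tested. Without haemoglobin genes it was -4.33, against 0.16. Of 9 genes known from keratinocytes or carcinoma cells, 7 were tested, of which 3 were higher (Adam15, Mmp28 and Mmp1b), 0 were lower and 0 were kept, with a median of 0.07. Without haemoglobin genes that median was -1.22, against 0.16 over all genes tested. Over all genes tested 57.0% were higher and 6.46% higher and kept. The lists are not exclusive, since Adam15 is also widely expressed and keratinocytes also make Mmp3, counted among the 19. The broadly expressed Adam10, Adam17 and Mmp15 were higher, with Mmp15 kept. The 14 fibroblast markers were all lower as well, and the part of the cell mix in these differences was not tested.

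Gelatinases digest denatured collagen and basement membrane collagen. Mmp2, the gelatinase made mainly by fibroblasts, stood at 19.2 and 7.38 TPM in Itga6hi CD80pos, against 401 and 201 TPM in Itga6low CD80neg. Mmp2 (chromosome 8, 92827291 to 92853420, plus strand, GRCm38) was lower, with a log2 fold change of -4.45 ± 0.60 (SE, n = 2 libraries each, limma adjusted p = 0.00566), and kept. Mmp9, the gelatinase of keratinocytes and neutrophils, stood at 15.2 and 31.6 TPM in Itga6hi CD80pos, against 22.8 and 20.3 TPM in Itga6low CD80neg. The Mmp9 libraries overlapped on deposited TPM, and its log2 fold change of 0.03 ± 0.43 had no call (adjusted p = 0.957). Without haemoglobin genes that value turned to -1.33, also with no call (adjusted p = 0.130). The Mmp9 libraries then lay apart, with 15.2 and 31.6 TPM in Itga6hi CD80pos, against 78.6 and 40.8 TPM in Itga6low CD80neg. Within a library, the ratio of Mmp2 to Mmp9 was 1.27 and 0.234 in Itga6hi CD80pos, against 17.6 and 9.90 in Itga6low CD80neg.

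Membrane-type enzymes sit at the cell surface. Mmp14, which cleaves fibrillar collagen and activates the Mmp2 precursor with the help of Timp2, stood at 56.3 and 61.1 TPM in Itga6hi CD80pos, against 251 and 181 TPM in Itga6low CD80neg. Mmp14 was lower (log2 fold change -1.84 ± 0.40, SE, adjusted p = 0.0132), and kept. It was still the Mmp gene with the highest level in Itga6hi CD80pos, at 58.7 ± 3.38 TPM (SD, n = 2). Its close relative Mmp15 went the other way. Mmp15 stood at 9.49 and 8.34 TPM in Itga6hi CD80pos, against 0.361 and 0.172 TPM in Itga6low CD80neg (log2 fold change 2.97 ± 0.28, SE, adjusted p = 0.00353), and was kept. Without Itga6hi CD80pos replicate 2 the Mmp15 value was 3.05. Mmp16, another enzyme of this kind, was lower at 0.690 and 0.217 TPM in Itga6hi CD80pos, against 2.85 and 2.42 TPM in Itga6low CD80neg (adjusted p = 0.0142), and kept. Mmp24 and Mmp25 stayed under 0.25 TPM in every library, and Mmp17 reached 1 TPM in 1 library only.

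The promoters of Mmp14 and Mmp15, which moved in opposite directions, are shown from 250 bases before to 50 after the gene's start (RefSeq, GRCm38.p6, 5′ to 3′ on the gene's strand). Capitals mark GC boxes, the letters GGGCGG or their reverse complement CCGCCC, which 35.7% of 32851 promoters in the table hold. Neither promoter holds the AP-1 letters described below. Mmp14 lies at chr14:54431348-54431647 on the plus strand and Mmp15 at chr8:95352046-95352345 on the plus strand.
Mmp14: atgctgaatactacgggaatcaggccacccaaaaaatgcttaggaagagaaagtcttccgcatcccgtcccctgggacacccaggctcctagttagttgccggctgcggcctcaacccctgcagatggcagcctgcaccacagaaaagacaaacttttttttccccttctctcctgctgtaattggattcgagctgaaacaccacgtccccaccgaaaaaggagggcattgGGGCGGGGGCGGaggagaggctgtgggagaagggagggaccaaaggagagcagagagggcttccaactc
Mmp15: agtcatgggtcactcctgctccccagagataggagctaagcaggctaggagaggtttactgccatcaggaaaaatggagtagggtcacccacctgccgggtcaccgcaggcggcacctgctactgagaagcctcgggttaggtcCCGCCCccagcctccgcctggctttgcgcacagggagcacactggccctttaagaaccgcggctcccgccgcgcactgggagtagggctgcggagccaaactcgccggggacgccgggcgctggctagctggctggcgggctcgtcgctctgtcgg
The pair of GC boxes in Mmp14 begins 19 and 13 bases before the start, and the GC box in Mmp15 begins 106 bases before it.

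Levels were also set against the fibroblast markers of the same library. For every 1000 TPM of the 14 fibroblast markers, Mmp14 stood at 2326 and 652 TPM in Itga6hi CD80pos, against 22.5 and 22.9 TPM in Itga6low CD80neg. Mmp2 stood at 794 and 78.7 TPM on that scale in Itga6hi CD80pos, against 36.0 and 25.4 TPM in Itga6low CD80neg. Mmp11, a stromal enzyme, stood at 31.2 and 6.91 TPM in Itga6hi CD80pos, against 5.96 and 11.6 TPM in Itga6low CD80neg, and its libraries overlapped. The scale rests on a marker sum under 100 TPM in Itga6hi CD80pos, which differed 24.2 against 93.7 TPM between its libraries, 75.1 TPM of the larger sum being Postn. In Itga6low CD80neg the marker sum was 11151 and 7898 TPM. The scale therefore raises every gene in Itga6hi CD80pos relative to Itga6low CD80neg, and no conclusion is drawn from it.

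Timp genes encode the inhibitors. All of Timp1, Timp2 and Timp3 were lower in Itga6hi CD80pos and kept, although the Timp3 call was lost with no filter on low values (adjusted p = 0.0954). The highest Timp3 adjusted p over the 5 scalings was 0.0496. Without Itga6low CD80neg replicate 1 the Timp3 value was -1.67. Timp1, an inhibitor of most secreted Mmp enzymes, stood at 1.90 and 5.40 TPM in Itga6hi CD80pos, against 70.2 and 122 TPM in Itga6low CD80neg (log2 fold change -4.44 ± 0.52, SE, adjusted p = 0.00468). Timp2, which both inhibits Mmp enzymes and bridges the Mmp2 precursor to Mmp14, stood at 17.0 and 5.53 TPM in Itga6hi CD80pos, against 317 and 158 TPM in Itga6low CD80neg (log2 fold change -4.37 ± 0.63, SE, adjusted p = 0.00618). Timp3, the matrix-bound inhibitor that also blocks Adam17, stood at 2.08 and 5.35 TPM in Itga6hi CD80pos, against 44.7 and 13.1 TPM in Itga6low CD80neg (log2 fold change -2.52 ± 0.67, SE, adjusted p = 0.0229). The groups did not overlap for any of these 3 genes. On deposited TPM the libraries of 12.9% of all genes tested lay wholly lower, and those of 73.5% wholly higher. Timp4 was under the filter, at 0 and 0.00555 TPM in Itga6hi CD80pos, against 0.0437 and 0.829 TPM in Itga6low CD80neg.

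Inhibitor and enzyme levels were also set against each other within libraries. The summed Timp to summed Mmp level was 0.151 and 0.0843 in Itga6hi CD80pos, against 0.449 and 0.377 in Itga6low CD80neg. Timp2 kept nearly the same ratio to Mmp2 in all libraries, at 0.885 and 0.749 in Itga6hi CD80pos and 0.791 and 0.788 in Itga6low CD80neg. Its ratio to Mmp14 was 0.302 and 0.0905 in Itga6hi CD80pos, against 1.26 and 0.873 in Itga6low CD80neg. Timp1 to Mmp9 was 0.125 and 0.171 in Itga6hi CD80pos, against 3.08 and 6.03 in Itga6low CD80neg. Adam17 to Timp3 was 8.56 and 3.15 in Itga6hi CD80pos, against 0.225 and 0.639 in Itga6low CD80neg. Apart from Timp2 to Mmp2, where the groups overlapped, each of these ratios lay apart between the groups. They are ratios of RNA, and no protein or activity was measured.

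**Figure D3:**
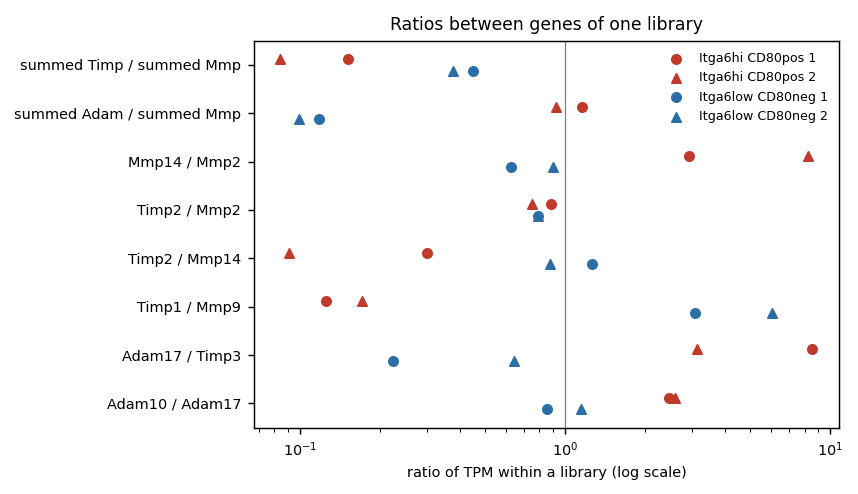
Ratios of TPM between genes of the same library, on a log axis, with 1 symbol per library. Timp2 to Mmp2 lies between 0.749 and 0.885 in all 4 libraries, while Mmp14 to Mmp2 is 2.93 and 8.28 in Itga6hi CD80pos and 0.627 and 0.902 in Itga6low CD80neg.

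Collagenases, stromelysins and some of their relatives lie side by side on chromosome 9, where 10 Mmp genes fall within 427 kb (7272514 to 7699585, GRCm38). Neighbours in this cluster differed in their levels and in their direction. Mmp3, a stromelysin that fibroblasts and keratinocytes both make, stood at 8.69 and 40.3 TPM in Itga6hi CD80pos, against 124 and 92.6 TPM in Itga6low CD80neg. It was lower (log2 fold change -2.43 ± 0.73, SE, adjusted p = 0.0318), and kept. The Mmp3 call was lost with no filter on low values (adjusted p = 0.116). Leaving out 1 library at a time, the Mmp3 value ranged from -3.48 to -1.39. Mmp10, the stromelysin of wound-edge keratinocytes, stood at 6.93 and 15.4 TPM in Itga6hi CD80pos, against 6.17 and 15.3 TPM in Itga6low CD80neg, and the libraries overlapped (log2 fold change 0.07 ± 0.56, adjusted p = 0.911). Without haemoglobin genes the Mmp10 value was -1.22 with no call (adjusted p = 0.135), and the libraries no longer overlapped, with 6.93 and 15.4 TPM in Itga6hi CD80pos, against 21.2 and 30.8 TPM in Itga6low CD80neg. Mmp13, the main interstitial collagenase of the mouse, stood at 12.4 and 12.5 TPM in Itga6hi CD80pos, against 10.7 and 92.4 TPM in Itga6low CD80neg. Its Itga6low CD80neg libraries stood far apart, and Mmp13 had no call (log2 fold change -1.30 ± 0.96, adjusted p = 0.269). Without Itga6low CD80neg replicate 1 the Mmp13 value was -2.8, and without replicate 2 it was 0.20.

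Mmp1a and Mmp1b are the mouse relatives of human interstitial collagenase. Mmp1b stood at 1.04 and 2.65 TPM in Itga6hi CD80pos, against 0 and 0.401 TPM in Itga6low CD80neg. It was called higher (log2 fold change 1.21 ± 0.39, SE, adjusted p = 0.0391). The Mmp1b call was lost under all other scalings (adjusted p up to 0.212), with a pseudocount of 5 and with no filter on low values. Leaving out 1 library at a time, its value ranged from 0.79 to 1.63. Mmp1a stood at 0.236 and 2.64 TPM in Itga6hi CD80pos, against 0 and 0.0602 TPM in Itga6low CD80neg, and was under the filter. The pair is partly alike: of 1419 stretches of 31 bases in Mmp1b transcripts, 20.6% also occur in Mmp1a, so how reads were divided between them is uncertain. Mmp1b also overlaps the end of its neighbour Mmp12 on the opposite strand, and reads of that stretch cannot be told apart without strand. Mmp3 and Mmp10 share 11.4% of the 1771 stretches of Mmp3. Mmp27 was lower, at 0 and 0.117 TPM in Itga6hi CD80pos, against 4.05 and 2.75 TPM in Itga6low CD80neg (adjusted p = 0.00603), and kept. Mmp12, the macrophage elastase, stood at 0.835 and 0.847 TPM in Itga6hi CD80pos, against 0.144 and 1.40 TPM in Itga6low CD80neg, Mmp8, the neutrophil collagenase, stayed under 0.2 TPM in every library, and Mmp7 and Mmp20 were listed at 0 throughout.

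**Figure D4:**
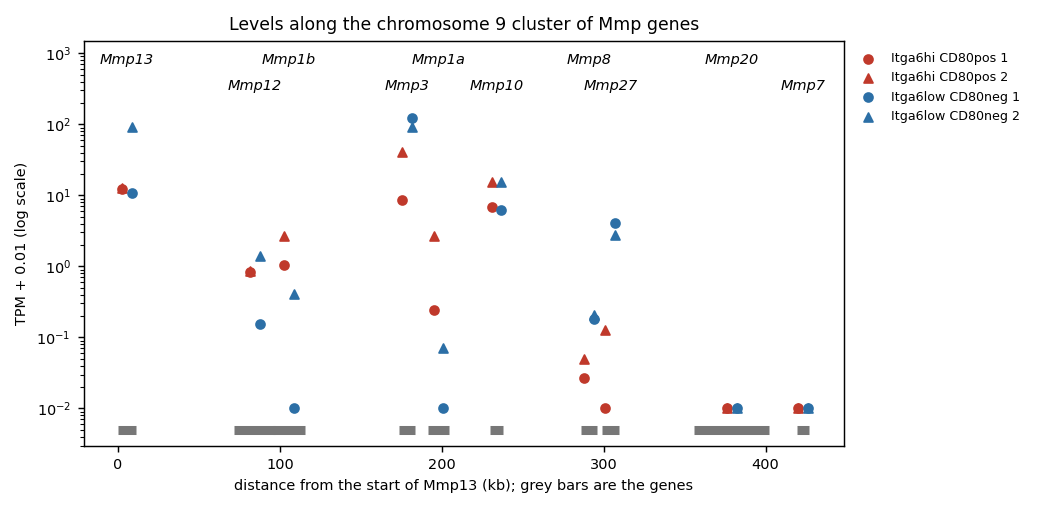
TPM + 0.01 on a log axis for the 10 Mmp genes of the chromosome 9 cluster, placed by distance from the start of Mmp13 in kb, with genes as grey bars. Mmp3 is higher in the Itga6low CD80neg libraries, Mmp1a and Mmp1b lie above the Itga6low CD80neg libraries in both Itga6hi CD80pos libraries, and Mmp10 lies between 6.17 and 15.4 TPM in both groups.

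The promoters of these cluster genes carry a shared arrangement that the choice of genes did not use. Many Mmp promoters are known to bind AP-1, the Jun and Fos factor that TPA induces. Within 250 bases before to 50 after the start, the AP-1 letters TGACTCA or TGAGTCA (each the reverse complement of the other, so both strands are covered) were found in 7 of the 10 cluster genes. Over all 32851 promoters of the table, 5.2% hold them. Those 7 also hold TATAAA, searched on the gene's strand only, downstream of the AP-1 letters, and 0.624% of all promoters hold both. The motifs did not overlap. Outside the cluster, AP-1 letters were found only for Adam19, Adam1b and Adam29, among the 54 genes of these families with an entry. Promoters are printed for the 5 genes whose levels are compared above, with AP-1 and TATAAA letters in capitals (RefSeq, GRCm38.p6, 5′ to 3′ on the gene's strand). In order they are at chr9:7272264-7272563 (plus strand), chr9:7387977-7388276 (minus strand), chr9:7445572-7445871, chr9:7463891-7464190 and chr9:7502092-7502391 (plus strand each).
Mmp13: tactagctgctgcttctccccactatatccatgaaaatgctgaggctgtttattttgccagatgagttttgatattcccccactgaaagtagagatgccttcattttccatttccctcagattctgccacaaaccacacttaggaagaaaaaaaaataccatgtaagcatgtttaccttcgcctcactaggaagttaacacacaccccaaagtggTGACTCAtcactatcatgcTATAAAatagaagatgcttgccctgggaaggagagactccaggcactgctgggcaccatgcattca
Mmp1b: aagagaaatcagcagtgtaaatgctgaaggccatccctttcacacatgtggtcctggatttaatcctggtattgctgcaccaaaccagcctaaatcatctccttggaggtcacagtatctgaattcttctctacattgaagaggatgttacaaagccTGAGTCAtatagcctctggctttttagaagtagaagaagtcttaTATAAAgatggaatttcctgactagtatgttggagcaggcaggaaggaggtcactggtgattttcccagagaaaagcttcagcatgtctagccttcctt
Mmp3: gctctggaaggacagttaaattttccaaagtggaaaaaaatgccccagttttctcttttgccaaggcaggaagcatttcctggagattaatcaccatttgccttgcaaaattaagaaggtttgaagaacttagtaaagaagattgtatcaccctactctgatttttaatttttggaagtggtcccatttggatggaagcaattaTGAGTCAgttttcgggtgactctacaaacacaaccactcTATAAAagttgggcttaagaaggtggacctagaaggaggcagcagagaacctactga
Mmp1a: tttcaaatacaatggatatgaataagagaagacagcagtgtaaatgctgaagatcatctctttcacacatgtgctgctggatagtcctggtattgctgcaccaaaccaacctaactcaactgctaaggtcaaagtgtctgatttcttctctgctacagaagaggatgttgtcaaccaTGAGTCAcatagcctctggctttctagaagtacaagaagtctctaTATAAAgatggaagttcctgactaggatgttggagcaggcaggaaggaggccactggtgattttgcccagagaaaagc
Mmp10: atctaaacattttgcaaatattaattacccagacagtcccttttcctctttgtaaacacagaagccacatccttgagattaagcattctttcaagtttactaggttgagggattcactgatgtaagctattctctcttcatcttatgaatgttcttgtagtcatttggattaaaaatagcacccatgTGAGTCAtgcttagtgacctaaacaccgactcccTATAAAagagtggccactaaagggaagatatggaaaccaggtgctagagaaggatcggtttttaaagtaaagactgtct
The AP-1 letters begin 35, 93, 46, 73 and 63 bases before the start in that order. Genes with these letters were lower (Mmp3), higher (Mmp1b) or without a call (Mmp13 and Mmp10). The Mmp1b call was not kept, and Mmp12, Mmp1a and Mmp7 were not tested. A match of letters says nothing of whether a factor was bound.

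The other Mmp genes included the lowest fold changes of these families. Mmp11, an enzyme activated by furin and known from fibroblasts around carcinomas, stood at 0.754 and 0.647 TPM in Itga6hi CD80pos, against 66.5 and 91.4 TPM in Itga6low CD80neg. Its log2 fold change was -5.54 ± 0.31 (SE, adjusted p = 0.00171). Mmp23, which has an unusual anchor at its start in place of the common layout, stood at 0.0914 and 0.293 TPM in Itga6hi CD80pos, against 44.3 and 64.8 TPM in Itga6low CD80neg (log2 fold change -5.52 ± 0.33, adjusted p = 0.00185). Mmp19 stood at 0.166 and 0.144 TPM in Itga6hi CD80pos, against 25.4 and 11.8 TPM in Itga6low CD80neg (log2 fold change -3.99 ± 0.42, adjusted p = 0.00412). All 3 were kept. Without Itga6hi CD80pos replicate 2 the value was -5.49 for Mmp11 and -5.64 for Mmp23. Mmp28, an enzyme of keratinocytes known as epilysin, was the exception. Mmp28 stood at 6.51 and 8.83 TPM in Itga6hi CD80pos, against 1.505 and 1.20 TPM in Itga6low CD80neg, and was higher on deposited TPM (log2 fold change 1.87 ± 0.30, adjusted p = 0.00705). Without haemoglobin genes its value was 0.90 with no call (adjusted p = 0.237). Of 12 keratinocyte markers 11 were higher beside it and 6 were kept, when 57.0% and 6.46% of all genes tested were. The part of keratinocytes in the Mmp28 result was not tested.

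**Figure D5:**
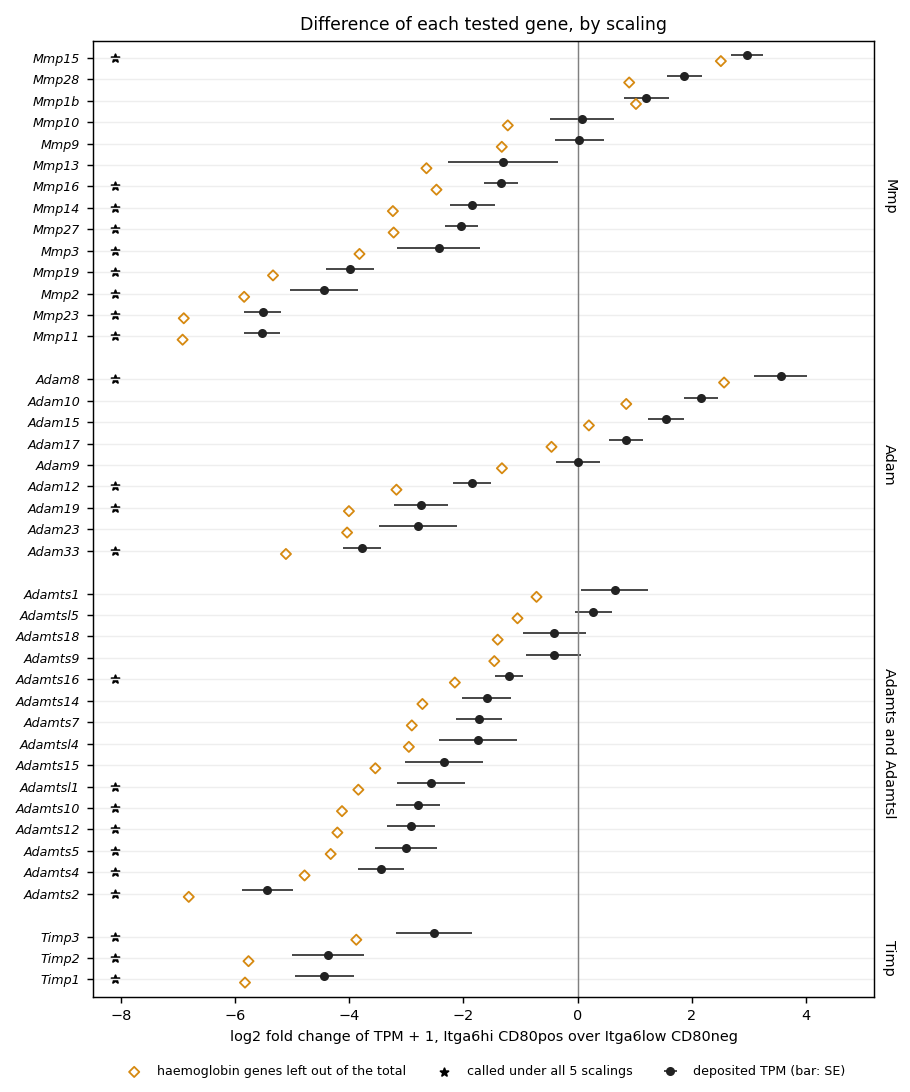
log2 fold change of TPM + 1 for the 41 tested genes, Itga6hi CD80pos over Itga6low CD80neg, on deposited TPM with its SE (filled circles) and with haemoglobin genes left out of the total (open diamonds). Stars mark the 23 genes called in the same direction under all 5 scalings. Leaving out haemoglobin genes moved every gene to the left, and Adam17, Adam9, Mmp9, Mmp10, Adamts1 and Adamtsl5 crossed 0.

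Adam genes at the cell surface held the highest positive fold change. Adam8, a sheddase known from neutrophils, macrophages and invasive tumour cells, stood at 25.2 and 42.2 TPM in Itga6hi CD80pos, against 1.02 and 3.05 TPM in Itga6low CD80neg. Adam8 (chromosome 7, 139978932 to 139992562, minus strand, GRCm38) was higher (log2 fold change 3.56 ± 0.47, SE, adjusted p = 0.00557), and kept. Over all genes tested 57.0% were higher and 9.48% lower. The myeloid marker lists hold too few tested genes to be set against these shares. Of the 10 macrophage and dendritic cell markers 3 could be tested, of which 1 was lower and 0 higher, and of the 10 neutrophil markers 3 could be tested, with no call. Among them Cd68 stood at 6.39 and 4.03 TPM in Itga6hi CD80pos, against 1.44 and 3.89 TPM in Itga6low CD80neg, Cd14 at 7.79 and 7.14 TPM in Itga6hi CD80pos, against 4.23 and 7.16 TPM in Itga6low CD80neg and Cxcr2 at 1.27 and 1.90 TPM in Itga6hi CD80pos, against 1.15 and 5.58 TPM in Itga6low CD80neg, each with no call. Lyz2 was lower, at 0.135 and 0.00 TPM in Itga6hi CD80pos, against 4.78 and 2.33 TPM in Itga6low CD80neg (adjusted p = 0.00823). The neutrophil marker Ly6g was listed at 0 in both Itga6hi CD80pos libraries, and Csf3r stood at 0.0129 and 0.0201 TPM there. Adgre1, a macrophage marker, stood at 0.0496 and 0 TPM in Itga6hi CD80pos, against 0.248 and 1.78 TPM in Itga6low CD80neg. The 10 macrophage and dendritic cell markers summed to 14.7 and 11.4 TPM in Itga6hi CD80pos, against 13.4 and 18.8 TPM in Itga6low CD80neg. Of the 10 neutrophil markers 4 were listed at 0 in both Itga6hi CD80pos libraries, and 2 in both Itga6low CD80neg libraries. The 10 summed to 1071 and 742 TPM in Itga6hi CD80pos, against 585 and 2594 TPM in Itga6low CD80neg. That sum was nearly all S100a8 and S100a9, known from neutrophils and from keratinocytes of carcinomas. The part of myeloid cells in the Adam8 result was not tested.

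Adam10 and Adam17 are the main sheddases of Notch receptors and of EGF receptor ligands. Adam10 stood at 44.0 and 43.8 TPM in Itga6hi CD80pos, against 8.55 and 9.60 TPM in Itga6low CD80neg (log2 fold change 2.16 ± 0.30, SE, adjusted p = 0.00581). Adam17 stood at 17.8 and 16.8 TPM in Itga6hi CD80pos, against 10.04 and 8.35 TPM in Itga6low CD80neg (log2 fold change 0.85 ± 0.29, SE, adjusted p = 0.0478). Adam15, a widely expressed Adam with an integrin-binding loop, stood at 57.6 and 57.6 TPM in Itga6hi CD80pos, against 19.6 and 18.4 TPM in Itga6low CD80neg (log2 fold change 1.55 ± 0.31, SE, adjusted p = 0.0109). None of these 3 was kept. Without haemoglobin genes the values were 0.85 for Adam10, 0.20 for Adam15 and -0.46 for Adam17. A ratio within a library does not depend on scaling, and that of Adam10 to Adam17 was 2.47 and 2.60 in Itga6hi CD80pos, against 0.852 and 1.15 in Itga6low CD80neg. Adam9 stood at 13.3 and 14.2 TPM in Itga6hi CD80pos, against 18.5 and 10.03 TPM in Itga6low CD80neg, with overlapping libraries and no call (adjusted p = 0.984). Without haemoglobin genes Adam9 was at -1.33, also with no call (adjusted p = 0.175), and the libraries lay apart, with 13.3 and 14.2 TPM in Itga6hi CD80pos, against 63.5 and 20.2 TPM in Itga6low CD80neg.

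Adam33, Adam12 and Adam19, known from mesenchymal cells, were lower. Adam33 stood at 0.0313 and 0.103 TPM in Itga6hi CD80pos, against 17.3 and 10.6 TPM in Itga6low CD80neg (log2 fold change -3.78 ± 0.33, adjusted p = 0.00338). Adam12, which tumour stroma is known to make, kept a measurable level in both groups, at 1.92 and 3.02 TPM in Itga6hi CD80pos, against 13.2 and 9.78 TPM in Itga6low CD80neg (adjusted p = 0.00853). Adam19 was lower as well, with 0.0511 and 0.0684 TPM in Itga6hi CD80pos and 10.1 and 3.53 TPM in Itga6low CD80neg (adjusted p = 0.00811), and all of these were kept. Adam23, a non-catalytic member known from neurons, was lower on deposited TPM, at 0.00681 and 0.00889 TPM in Itga6hi CD80pos, against 13.4 and 2.40 TPM in Itga6low CD80neg (adjusted p = 0.0184), and was not kept. Of the 34 Adam genes, 14 were listed at 0 in every library.

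Adamts genes were lower where they were called. Of 12 tested, 9 were lower, 0 were higher and 6 of the lower calls were kept, when 9.48% of all genes tested were lower and 8.30% lower and kept. Of the 9, 8 reached 1 TPM in Itga6low CD80neg only, where 92.0% of all such genes were lower. Adamts2, which trims the ends of procollagens, stood at 0.130 and 0.278 TPM in Itga6hi CD80pos, against 76.0 and 34.1 TPM in Itga6low CD80neg (log2 fold change -5.44 ± 0.45, SE, adjusted p = 0.00296). Without Itga6hi CD80pos replicate 2 the Adamts2 value was -5.52. Its relative Adamts14 was lower on deposited TPM (adjusted p = 0.0240) and not kept. The aggrecanases Adamts4 and Adamts5, which cut aggrecan and versican, were lower and kept. Adamts4 stood at 0.315 and 0.499 TPM in Itga6hi CD80pos, against 20.1 and 10.1 TPM in Itga6low CD80neg (log2 fold change -3.45 ± 0.40, adjusted p = 0.00464). Adamts5 stood at 0.316 and 0.943 TPM in Itga6hi CD80pos, against 20.1 and 6.81 TPM in Itga6low CD80neg (log2 fold change -3.004 ± 0.54, adjusted p = 0.00873).

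Adamts1, a proteoglycanase of the same kind, differed from its relatives in level. It stood at 48.4 and 67.9 TPM in Itga6hi CD80pos, against 62.0 and 20.9 TPM in Itga6low CD80neg, so the groups overlapped and there was no call (log2 fold change 0.65 ± 0.59, adjusted p = 0.356). At 58.1 ± 13.8 TPM (SD, n = 2) it stood beside Mmp14 at 58.7 TPM and Adam15 at 57.6 TPM as 1 of the 3 highest of the 85 genes in Itga6hi CD80pos, and these 3 did not differ beyond their spread. Without Itga6low CD80neg replicate 1 the Adamts1 value was 1.41, and without replicate 2 it was -0.11. Under the 4 other scalings it lay between -0.76 and -0.49, with no call in any of the 4. Adamts9 stood at 0.310 and 2.17 TPM in Itga6hi CD80pos, against 2.05 and 1.44 TPM in Itga6low CD80neg, with overlapping libraries and no call (adjusted p = 0.460). Adamts18 stood at 0.0857 and 2.14 TPM in Itga6hi CD80pos, against 1.86 and 1.10 TPM in Itga6low CD80neg, also overlapping and with no call (adjusted p = 0.534). Without haemoglobin genes the libraries of both genes lay apart, with no call. Adamts9 was then at 0.310 and 2.17 TPM in Itga6hi CD80pos, against 7.06 and 2.91 TPM in Itga6low CD80neg. Adamts18 was at 0.0858 and 2.14 TPM in Itga6hi CD80pos, against 6.41 and 2.21 TPM in Itga6low CD80neg.

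Adamtsl proteins lack the catalytic part and associate with microfibrils. Adamtsl5 stood at 15.96 and 15.1 TPM in Itga6hi CD80pos, against 15.4 and 10.3 TPM in Itga6low CD80neg, with no call (log2 fold change 0.28 ± 0.33, adjusted p = 0.478). Adamtsl1 was lower, at 0.0496 and 0.620 TPM in Itga6hi CD80pos, against 12.6 and 3.40 TPM in Itga6low CD80neg (adjusted p = 0.0156), and kept. Adamtsl4 lay at 0.826 and 0.701 TPM in Itga6hi CD80pos, against 10.96 and 1.91 TPM in Itga6low CD80neg, with no call (adjusted p = 0.0667). Its Itga6low CD80neg libraries stood far apart, and a fit without 1 of them cannot measure that spread.

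Of 22 listed activators and regulators, 16 were tested, of which 8 were higher and 4 lower, with 0 and 3 kept. Over all genes tested 57.0% were higher and 9.48% lower, with 6.46% and 8.30% kept. Furin, a convertase that removes the precursor part of Adam and membrane-type Mmp enzymes, stood at 61.3 and 69.6 TPM in Itga6hi CD80pos, against 13.5 and 16.3 TPM in Itga6low CD80neg (adjusted p = 0.00684). Rhbdf2 and Frmd8, which carry Adam17 to the cell surface, stood at 19.96 and 26.4 TPM in Itga6hi CD80pos, against 2.97 and 4.15 TPM in Itga6low CD80neg, and at 30.0 and 21.5 TPM in Itga6hi CD80pos, against 4.60 and 4.05 TPM in Itga6low CD80neg. Tspan14, a tetraspanin partner of Adam10, stood at 36.2 and 38.3 TPM in Itga6hi CD80pos, against 6.59 and 10.2 TPM in Itga6low CD80neg. These 4 were higher on deposited TPM, and none was kept. Reck, a membrane-anchored inhibitor of Mmp enzymes, was lower and kept, at 0.0712 and 0.0556 TPM in Itga6hi CD80pos, against 12.3 and 2.92 TPM in Itga6low CD80neg (adjusted p = 0.0132). Pcsk5, another convertase, was lower and kept, at 1.11 and 0.214 TPM in Itga6hi CD80pos, against 12.2 and 5.09 TPM in Itga6low CD80neg (adjusted p = 0.0110). The median log2 fold change of the 16 was 1.13, close to the 1.27 of all genes.

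Membrane proteins that Adam enzymes release were mixed. Of 25 tested, 15 were higher and 3 lower, when 57.0% and 9.48% of all genes were. Kept were 3 higher and 2 lower calls, against 6.46% and 8.30% of all genes tested. The median log2 fold change of the 25 was 2.17, against 1.27 over all genes tested. Without haemoglobin genes it was 0.92, against 0.16. Tgfa, a ligand of the EGF receptor, stood at 18.1 and 38.4 TPM in Itga6hi CD80pos, against 0.732 and 2.35 TPM in Itga6low CD80neg (log2 fold change 3.51, adjusted p = 0.00629). Nrg1, a ligand of ErbB receptors, stood at 23.96 and 34.9 TPM in Itga6hi CD80pos, against 1.19 and 1.25 TPM in Itga6low CD80neg (log2 fold change 3.75, adjusted p = 0.00322). Cd44, a hyaluronan receptor, stood at 160.1 and 167 TPM in Itga6hi CD80pos, against 16.8 and 20.8 TPM in Itga6low CD80neg (log2 fold change 3.06, adjusted p = 0.00447). These 3 were the higher calls that were kept. Cdh1, Sdc1 and Jag1 were higher on deposited TPM and not kept.

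Matrix proteins that Mmp and Adamts enzymes cleave were mostly lower. Of 16 tested, 12 were lower and 2 higher, with 10 and 2 kept, and the median log2 fold change was -3.79. Over all genes tested 9.48% were lower and 57.0% higher, with 8.30% and 6.46% kept. Col17a1, a collagen of the epidermal basement membrane zone, was higher and kept. It stood at 231 and 478 TPM in Itga6hi CD80pos, against 1.82 and 1.69 TPM in Itga6low CD80neg (adjusted p = 0.00195). Col3a1, a fibrillar collagen, stood at 2.22 and 2.56 TPM in Itga6hi CD80pos, against 2963 and 2123 TPM in Itga6low CD80neg (adjusted p = 0.00162). Of these genes Col1a1, Col1a2, Col3a1, Dcn and Fbn1 are also on the fibroblast list. Of 5 tested enzymes and partners of the neighbouring families, 3 were lower, 0 were higher and 2 were kept. Pcolce, which enhances the trimming of procollagens, stood at 0.596 and 0.917 TPM in Itga6hi CD80pos, against 244 and 185 TPM in Itga6low CD80neg (log2 fold change -6.93, adjusted p = 0.00162). Bmp1, the enzyme that Pcolce enhances, stood at 29.0 and 70.3 TPM in Itga6hi CD80pos, against 75.3 and 65.1 TPM in Itga6low CD80neg, with overlapping libraries and no call (adjusted p = 0.317). Without haemoglobin genes the Bmp1 libraries lay apart, also with no call (adjusted p = 0.0678). They were then at 29.0 and 70.3 TPM in Itga6hi CD80pos, against 259 and 131 TPM in Itga6low CD80neg.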

How the data were processed

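PolyA RNA of sorted mouse skin carcinoma cells was measured in 4 libraries. The authors deposited TPM per gene; the submitters' processing notes name kallisto 0.44.0 and mm10, and the annotation is not given in the sources used here. TPM sums to 1000000 in each library and keeps no depth, so no counting error can be given. Gene positions come from GENCODE M21, in which 85 of 85 gene IDs were found, and promoters from RefSeq.

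Genes reaching 1 TPM in 2 or more libraries entered the test on log2(TPM + 1) with limma 3.58.1 in R 4.3.3 (trended empirical Bayes, two-sided, Benjamini-Hochberg adjustment over 13474 genes, threshold 0.05), after a check on simulated data. Whether replicates are separate animals is not stated, and p-values therefore cover the spread of these libraries alone, which may be technical. Alternatives changed the pseudocount, filter, scaling, trend, block and libraries. A rule chose 27 genes, of which 25 were tested and followed under the alternatives, 22 of them where a mean of 5 TPM was asked: the Timp genes, the 10 highest and 10 lowest fold changes among called genes whose groups do not overlap, the 10 highest levels in each group, and the highest level of each class. From each pathway list the rule took up to 6 called genes by size of change. Other genes were named after their values were seen. The genes and lists were chosen with earlier results of these data known. The 2 Itga6hi CD80neg samples were not analysed here.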

Additional observations from a re-analysis of the deposited data

How the results depend on the processing

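Of these genes, 7 were higher and 25 lower on deposited TPM. The number higher was 4 with a mean of at least 5 TPM, 2 with median-of-ratios scaling, 2 with quantile normalization, 2 without haemoglobin genes, 3 without mitochondrial, ribosomal protein, haemoglobin and keratin genes, and 2 over all 5 scalings together. The number lower was 15 with a mean of at least 5 TPM, where fewer genes were tested, 17 with no filter on low values, which gave 5 higher, and 21 to 24 under the other scalings. Leaving out 1 library at a time gave 0 to 7 higher and 0 to 25 lower.

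Under median-of-ratios, quantile, haemoglobin-free and 4-class scaling, in that order, the log2 fold changes that turned sign were -0.33, -0.46, -0.46 and -0.24 for Adam17, -1.18, -1.31, -1.33 and -1.11 for Adam9, -0.60, -0.76, -0.72 and -0.49 for Adamts1, -0.91, -1.04, -1.05 and -0.84 for Adamtsl5, and -1.19, -1.33, -1.33 and -1.11 for Mmp9. Mmp10, outside the genes chosen by rule, also turned, to -1.22 without haemoglobin genes. Leaving out 1 library at a time, Adam9 ranged from -0.40 to 0.42, Adamts1 from -0.11 to 1.41, Mmp13 from -2.80 to 0.20 and Mmp9 from -0.48 to 0.53. Without Itga6hi CD80pos replicate 2, Adam9 was at -0.04 and Mmp9 at -0.48. Without Itga6low CD80neg replicate 2, Adam9 was at -0.40, Adamts1 at -0.11, Mmp9 at -0.05 and Mmp13 at 0.20. The cause was not tested.

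The labels do not say that replicate numbers pair the libraries, and same-numbered libraries deviated with a correlation of 0.109. With the replicate number as a block, 6 genes were higher and 27 lower. Under the block, Adam17 had no call (adjusted p = 0.112) and Mmp13 was called lower (adjusted p = 0.0233). The Mmp13 SE was 0.533 with the block and 0.963 without it, although its Itga6low CD80neg libraries stood at 10.7 and 92.4 TPM. The block leaves little to measure the spread of each gene, so no conclusion is drawn from these calls.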
